A study of Mus musculus with 20 samples.

Results

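Liver tumours of sedentary mice on a high-fat diet were compared with the livers of sedentary mice on a normal diet, the full distance from lean liver to tumour. The comparison uses 8 of the 20 RNA-seq libraries of the series, 4 tumour pieces and 4 normal-diet livers, chosen by their titles. The 4 sedentary high-fat non-tumour livers, which carry the same mouse numbers as the tumours, are given between them where a value needs placing. All mice were male, wild type, of a strain spelled C56BL/6, and 35 weeks old. The protocol describes painting of the back with 50 µL of 0.5% DMBA (7,12-dimethylbenz(a)anthracene, a skin-applied carcinogen) on postnatal day 4 to 5 and sets no group apart from it. The high-fat diet, D12492, took 60 kcal% of its energy from fat, 20 from protein and 20 from carbohydrate. The normal diet, CE-2, took 12 kcal% from fat, 29 from protein and 59 from carbohydrate. Diets began with the nursing mothers, pups were weaned at 4 weeks, and the obese mice used weighed over 45 g. Exercise was not given to any mouse described here. The series asks how exercise bears on liver cancer, the factors E2F1 and c-Myc and the circadian genes. Diet and tumour state change together between these groups, so their effects cannot be told apart in this comparison alone.

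Liver tumours that arise in fatty liver are usually made of hepatocytes, the cells that in healthy liver secrete plasma proteins, make urea and bile acids, oxidise fat and break down foreign compounds. Dividing hepatocytes turn on a shared set of genes for DNA replication and mitosis, which E2F factors and the MuvB complexes control. Sterol and unsaturated fatty acid synthesis are controlled by SREBP factors. In male mice, pulsed growth hormone keeps a set of male-biased liver genes on and female-biased genes off through the transcription factor STAT5B.

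Expression is given in CPM, the count of a gene divided by the gene-assigned reads of its library, in units of 1000000 reads, after TMM scaling, which evens out differences in library makeup. It compares libraries and not genes of different length. Libraries held 18171377 to 19824518 gene-assigned reads in tumours and 16626648 to 18826889 in normal-diet livers. Tumour 3 stood apart from the other tumours. Its mean distance from the normal-diet livers, the root mean square log2 difference over the 500 most different genes of each pair, was 3.91, against 4.77 to 5.72 for the other 3 tumours. The median distance was 4.90 over the 16 pairs of a tumour and a normal-diet liver, 2.46 among tumours and 1.67 among normal-diet livers. On the first principal component, which held 63.0% of the variance of the 12 sedentary libraries, tumours lay at −109, −86.9, −41.3 and −73.6, non-tumour livers at −3.87 to 22.5 and normal-diet livers at 66.5 to 69.1. Normal-diet liver 2 was far from its group in several metabolic and inflammatory genes, which are listed under the results flagged for a closer look. The number of genes with at least 10 counts was 13524 to 14181 in tumours and 12870 to 13088 in normal-diet livers (two-sided exact permutation test, p = 0.0286, the smallest 4 against 4 allows, and 0.0776 after adjustment over 19 library measures).

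**Figure D1:**
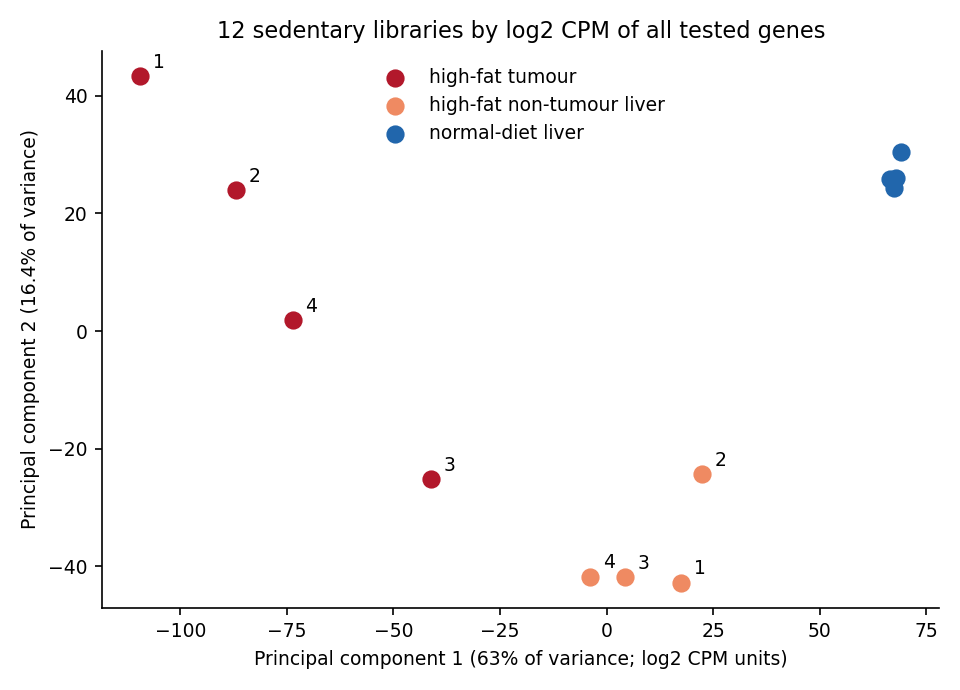
First 2 principal components of log2 CPM for the 4 tumours, 4 non-tumour high-fat livers and 4 normal-diet livers, each point 1 library, with mouse numbers beside the high-fat ones. Tumours lie at −109 to −41.3 on the first component, with tumour 3 nearest to the other groups, and normal-diet livers at 66.5 to 69.1.

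The tumours differed from lean liver across much of the transcriptome. Of 14428 genes tested with edgeR's quasi-likelihood test, 4123 (28.6%) were higher in tumours and 3862 (26.8%) lower at a Benjamini-Hochberg adjusted p under 0.05, in all 7985 (55.3%). With a change of at least 2-fold as well, 2290 (15.9%) were higher and 1075 (7.45%) lower. Large changes were mostly gains, with 1006 genes at least 4-fold higher against 361 lower, and 332 at least 16-fold higher against 63 lower. For 7100 genes (49.2%) no tumour library overlapped a normal-diet library. The same held for 6669 of the 7985 genes called. Many genes below were named for a small p or a large change, so their lack of overlap is no separate support. The median log2 fold change over all genes was 0.03. Values written with ± below are log2 fold changes, tumour minus normal-diet liver unless another pair is named. The value after ± is an SE worked back from the test's F statistic, in a fit of all 20 libraries of the series. Each adjusted p is from this fit. For the gene lists below, each count is therefore to be read against 28.6% called higher and 26.8% called lower. Without tumour 3 the same test called 3986 genes higher and 3882 lower.

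A small set of genes had no read, or a single one, in the 4 lean livers together and was read in every tumour, at uneven levels. Krt20, an intermediate filament keratin of intestinal epithelium (chromosome 11, 99319229 to 99328976, GRCm39), had 69.8, 78.8, 18.1 and 58.5 CPM in tumours and 0 in all 4 normal-diet livers. Pooled, this was 4301 counts against 0, at least 1340-fold higher when set against a floor of 3 counts over the normal-diet group, and at least 1130-fold with any single tumour left out. Adjusted p was 2.2e-05. Non-tumour livers held 0.112 to 1.34 CPM. On the same floor Cdh17, an intestinal cadherin, was at least 276-fold higher (161-fold without tumour 1), Mep1a, a metalloprotease subunit of gut and kidney brush border, at least 279-fold (175-fold without tumour 4, with 0.976 CPM in tumour 3 and 8.67 to 24.7 CPM in the others), and Npc1l1, the intestinal sterol importer, at least 267-fold. Gldn, an extracellular matrix protein of nerve nodes, was at least 854-fold higher but uneven, with 67.2, 0.564, 22.7 and 53.8 CPM in tumours, so that tumour 2 was close to the non-tumour livers at 0.29 to 1.28. Spink1, a trypsin inhibitor, had 4081 pooled counts in tumours and 1 in normal-diet livers, a ratio of 3820 with a 95% counting interval of 686 to 151000, and without normal-diet liver 4 that group held no read of it.

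Akr1c18, a 20-alpha-hydroxysteroid dehydrogenase that inactivates progesterone (chromosome 13, 4182614 to 4200653), had 387, 295, 116 and 264 CPM in tumours, against 0.175, 0, 0 and 0.0636 CPM in normal-diet livers. Its log2 fold change was 11.97 ± 1.42 (SE; adjusted p = 4.3e-06), and 13.29 ± 1.83 without normal-diet liver 1, which held most of the few reads. Non-tumour livers lay between, with tumours higher than them by 5.80 ± 0.92 on the log2 scale (adjusted p = 0.000241) and them higher than normal-diet livers by 6.17 ± 1.60 (adjusted p = 0.00993). Cyp2a4, a testosterone 15-alpha-hydroxylase normally prominent in female liver, had 1850, 1320, 329 and 1190 CPM in tumours, against 0.7, 0.523, 0.172 and 0.0636 CPM in normal-diet livers. Its log2 fold change was 11.61 ± 1.52 (adjusted p = 1.05e-05). Tumour 3 was the lowest tumour for both genes and still far above every normal-diet liver. Cyp2a4 is near-identical in sequence to Cyp2a5, so the split of reads between them is uncertain.

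The deepest losses were male-biased or inducible liver genes. Hsd3b5, a steroid dehydrogenase of male mouse liver, had 0, 0.154, 1.53 and 0.207 CPM in tumours, against 305, 160, 281 and 346 CPM in normal-diet livers. The log2 fold change was −9.06 ± 1.81 (adjusted p = 0.000473), and −11.03 ± 2.44 without tumour 3. Non-tumour livers were equally low at 0.107 to 1.39 CPM, and tumours did not differ from them detectably (−0.17 ± 2.37, adjusted p = 0.965). Cyp26a1, which clears retinoic acid, had 0.169, 0.308, 0.929 and 0.569 CPM in tumours, against 82.8, 40.5, 87.9 and 66 CPM in normal-diet livers (log2 fold change −7.08 ± 0.52, adjusted p = 1.61e-07). Cyp2b10, the classic target of the drug receptor CAR, had 0.0929 to 0.258 CPM in tumours and 20.6 to 23.1 CPM in 3 normal-diet livers, with 85.5 CPM in the other one. Its log2 fold change was −7.67 ± 1.23 (adjusted p = 6.83e-05), and −6.88 ± 1.19 without normal-diet liver 1. For none of these 3 genes did the groups overlap.

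**Figure D2:**
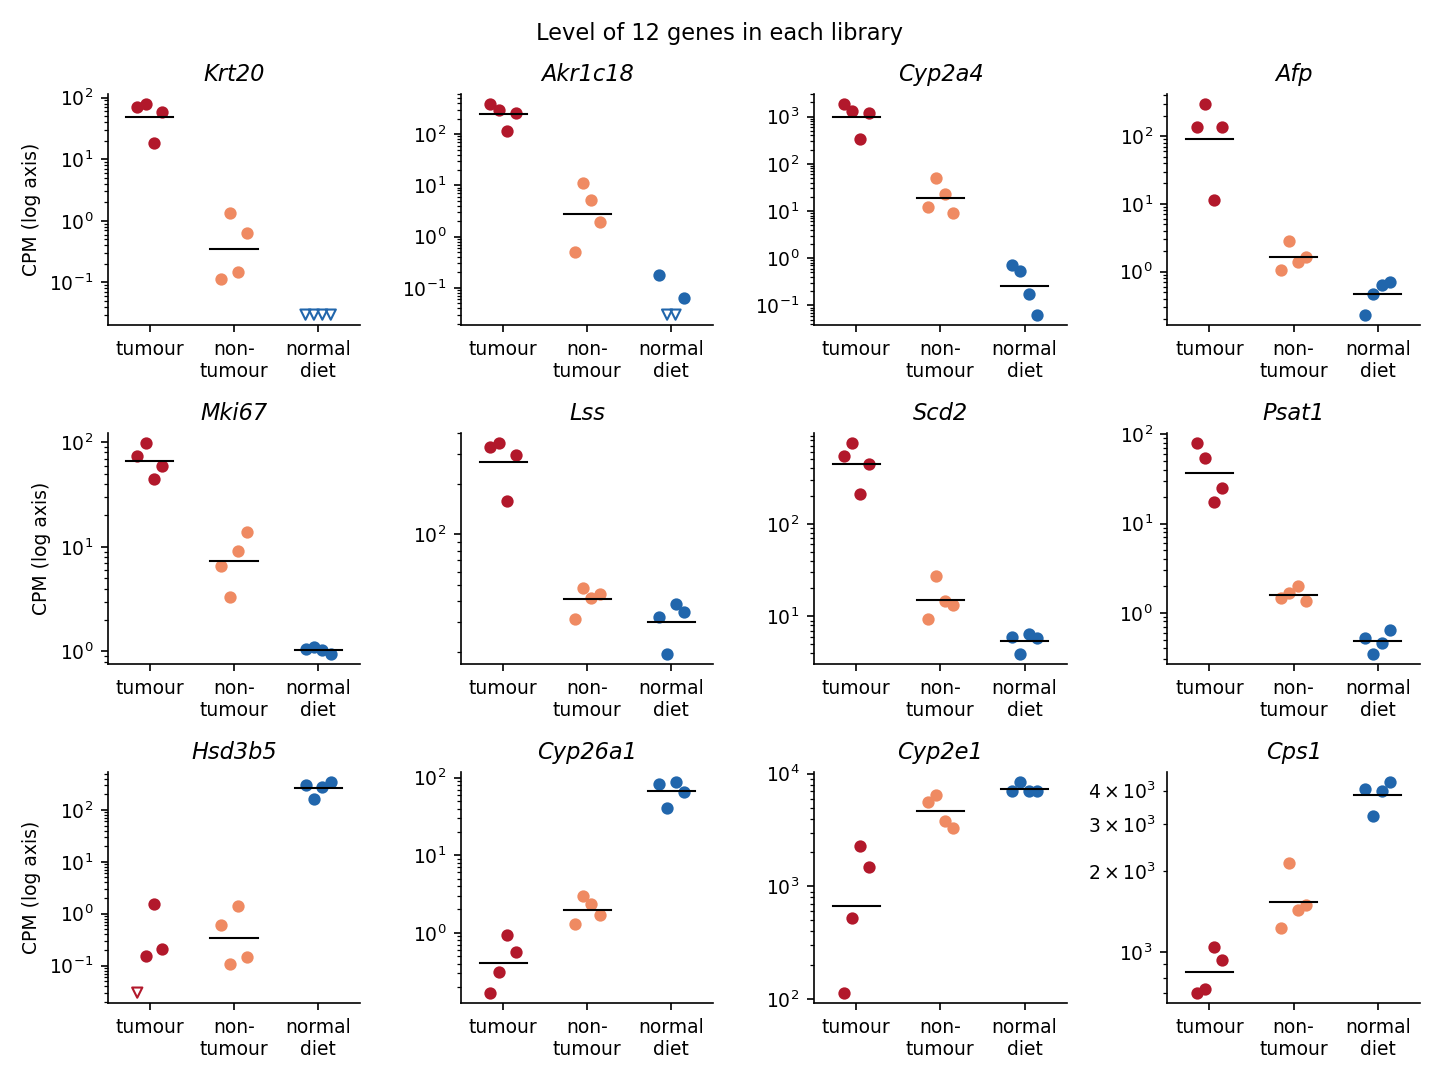
CPM of 12 genes on log axes, 1 point per library, with tumours left, non-tumour high-fat livers in the middle and normal-diet livers right in each panel; lines are geometric means where no library is at 0, and open triangles stand for libraries at 0. Krt20 is at 18.1 to 78.8 CPM in tumours and at 0 in normal-diet livers, while Cyp26a1 is at 0.169 to 0.929 CPM in tumours and 40.5 to 87.9 CPM in normal-diet livers.

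Male-biased genes were lower in tumours and most female-biased genes that could be tested were higher. All 18 male-biased genes tested were lower, with a median log2 fold change of −3.39. Of 16 female-biased genes 9 were tested, with a median of 4.87. Of these 6 were higher and 3 did not pass, and 1 was lower without tumour 2 or 3 or normal-diet liver 3 or 4. Mup3, a major urinary protein, had 258, 856, 2800 and 1100 CPM in tumours, against 12200, 10600, 9970 and 10500 CPM in normal-diet livers (log2 fold change −3.11 ± 0.62, adjusted p = 0.000463, and −3.87 ± 0.63 without tumour 3). The Mup genes are nearly identical to each other, so its share of their reads is uncertain. Elovl3, a male-biased elongase of very long fatty acids, had 0.562, 7.9, 129 and 42.3 CPM in tumours, against 1150, 883, 1160 and 1130 CPM in normal-diet livers (log2 fold change −4.58 ± 1.11, adjusted p = 0.00224, and −6.00 ± 1.23 without tumour 3). Tumours thus spanned more than 2 orders of magnitude for a gene that was even among lean livers. Cyp7b1, an oxysterol hydroxylase, fell by 4.61 ± 0.88 on the log2 scale (adjusted p = 0.000327), and by 5.75 ± 0.94 without tumour 3.

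Among female-biased genes, Cyp2b9 had 302, 279, 131 and 291 CPM in tumours, against 6.71, 1.22, 0.344 and 0.827 CPM in normal-diet livers. Its log2 fold change was 6.78 ± 0.88 (adjusted p = 9.54e-06), and 8.29 ± 0.93 without normal-diet liver 1. Non-tumour livers had 68.5 to 276 CPM, and tumours did not differ from them detectably (0.50 ± 0.66, adjusted p = 0.59). Reads of Cyp2b9 are uncertain because close copies exist in the Cyp2b cluster. Abcd2, a peroxisomal fatty acid transporter, had 101 to 193 CPM in tumours, 41.1 to 60.2 CPM in non-tumour livers and 2.99 to 8.78 CPM in normal-diet livers, and passed the test at both steps (1.72 ± 0.36, adjusted p = 0.00169, and 3.14 ± 0.40, adjusted p = 9.82e-05). Cyp17a1, an androgen-synthesis enzyme, was higher by 4.87 ± 0.65 on the log2 scale (adjusted p = 1.32e-05). Of 18 growth hormone and IGF axis genes, 3 were higher and 8 lower. Ghr, the growth hormone receptor, had 149, 213, 375 and 324 CPM in tumours, against 824, 541, 832 and 855 CPM in normal-diet livers (log2 fold change −1.52 ± 0.27, adjusted p = 0.000141). Stat5b had 42.3 to 57.4 CPM in tumours and 62.5 to 111 CPM in normal-diet livers (−0.86 ± 0.14, adjusted p = 7.54e-05). Igfals, the acid-labile subunit that holds IGF1 in plasma, fell by 2.84 ± 0.52 (adjusted p = 0.000225), and by 3.72 ± 0.47 without tumour 3. Neither Ghr, Stat5b nor Igfals overlapped between the groups, as for 49.2% of all genes tested.

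Genes of G2 and mitosis formed the most uniform gain, with 30 of 30 tested higher and a median log2 fold change of 5.22. These genes are the ones whose promoters are shown here, because they moved together, beside a pair of sterol synthesis genes described further on. The windows run from 250 bases before to 50 bases after the transcription start in RefSeq annotation of GRCm38.p6, an older build than that of the counts, read 5′ to 3′ on the gene's strand. Capitals mark 3 motifs found by letter search on both strands: TTTGAA, the cell-cycle homology region (CHR) bound by MuvB complexes; CCAAT, bound by NF-Y; and CACCCCA, the core of a sterol response element. In Ube2c, a pair of CCAAT boxes on opposite strands overlap in the run of capitals after the first box.
Ube2c, chr2:164769679-164769978 (+): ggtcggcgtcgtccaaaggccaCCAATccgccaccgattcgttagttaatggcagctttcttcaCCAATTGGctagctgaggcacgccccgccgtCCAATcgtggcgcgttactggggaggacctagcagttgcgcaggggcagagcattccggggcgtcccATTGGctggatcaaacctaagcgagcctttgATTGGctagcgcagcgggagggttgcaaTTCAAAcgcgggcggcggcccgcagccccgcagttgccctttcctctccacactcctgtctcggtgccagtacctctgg
Top2a, chr11:99024140-99024439 (−): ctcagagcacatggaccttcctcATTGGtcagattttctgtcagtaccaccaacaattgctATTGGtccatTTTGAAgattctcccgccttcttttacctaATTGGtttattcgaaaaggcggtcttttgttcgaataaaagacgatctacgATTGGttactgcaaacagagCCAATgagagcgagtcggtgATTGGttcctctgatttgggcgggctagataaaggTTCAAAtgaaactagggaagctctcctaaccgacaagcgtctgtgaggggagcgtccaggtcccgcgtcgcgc
Lss, chr10:76531355-76531654 (+): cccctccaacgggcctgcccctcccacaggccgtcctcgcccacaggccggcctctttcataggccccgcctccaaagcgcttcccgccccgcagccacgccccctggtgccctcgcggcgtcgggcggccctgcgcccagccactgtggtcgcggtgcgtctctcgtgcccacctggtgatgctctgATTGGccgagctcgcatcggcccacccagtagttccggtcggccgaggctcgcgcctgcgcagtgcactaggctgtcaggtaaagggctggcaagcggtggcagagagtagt
Hmgcs1, chr13:119690101-119690400 (+): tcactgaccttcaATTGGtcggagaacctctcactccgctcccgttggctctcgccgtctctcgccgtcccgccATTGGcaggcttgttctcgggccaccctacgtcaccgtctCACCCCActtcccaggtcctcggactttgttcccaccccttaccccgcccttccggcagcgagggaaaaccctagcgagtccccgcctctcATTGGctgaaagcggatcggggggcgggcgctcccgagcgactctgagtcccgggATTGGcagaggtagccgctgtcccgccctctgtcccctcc

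A CHR element began 29 bases before the start in Ube2c, and 179 and 23 bases before it in Top2a. Of 26 promoters of 25 G2 and mitosis genes with an entry, 19 (73.1%) held a CHR element, 22 (84.6%) a CCAAT box and 18 (69.2%) both. Over all 32851 promoters in the table the shares were 17.9%, 37.4% and 6.95%. Of 19 promoters of 16 cholesterol genes, 1 (5.26%) held a CHR element, 16 (84.2%) a CCAAT box and 2 (10.5%) the sterol core, which 7.62% of all promoters held. A match describes letters in a window and shows no binding.

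Mki67, the proliferation marker Ki-67, had 74.2, 98.5, 44.6 and 59.5 CPM in tumours, against 1.05, 1.1, 1.03 and 0.954 CPM in normal-diet livers. The log2 fold change was 6.05 ± 0.55 (adjusted p = 6.64e-07), about 66.3-fold. Top2a, the topoisomerase that untangles sister chromatids, had 32.4, 43, 27.6 and 29.9 CPM in tumours, against 0.758, 0.756, 0.974 and 0.827 CPM in normal-diet livers (5.31 ± 0.45, adjusted p = 4.08e-07). Ube2c, the ubiquitin-conjugating enzyme of the anaphase-promoting complex, had 14.7, 17.1, 7.71 and 9.72 CPM in tumours, against 0.175, 0.291, 0.172 and 0.254 CPM in normal-diet livers (5.75 ± 0.39, adjusted p = 4.74e-08). Tumour 3 was the lowest tumour for all 3 genes and still far above every lean liver. Aurka, a spindle-pole kinase, and Nusap1, a spindle protein, were higher by 4.40 ± 0.40 and 5.25 ± 0.48. Kif11, a spindle motor, was higher by 3.04 ± 0.29 (adjusted p = 6.45e-07). Non-tumour livers were intermediate for Mki67 (3.32 to 13.8 CPM), Top2a (2.25 to 7.6 CPM) and Ube2c (1.02 to 1.59 CPM), and both steps passed the test for each of these 3 genes.

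Replication and G1 genes moved less evenly. Of 31 DNA replication and S-phase genes, 25 were higher and 3 lower, with a median of 0.86. Mcm2, a subunit of the replicative helicase, was higher by 1.74 ± 0.21 (adjusted p = 3.83e-06), Uhrf1, which carries DNA methylation through replication, by 4.33 ± 0.54, and Cdc6, an origin-licensing factor, by 2.98 ± 0.45. The 3 that fell were Mcm10, Gins1 and Tk1, named after their values were seen. Mcm10, a replication initiation factor, had 7.25, 12.4, 24.9 and 13.9 CPM in tumours, against 80.1, 71.7, 101 and 137 CPM in normal-diet livers (−2.73 ± 0.44, adjusted p = 6.72e-05). Tk1, the thymidine kinase of the S-phase salvage route, had 7.14 to 9.39 CPM in tumours and 12.2 to 24.8 CPM in normal-diet livers (−1.28 ± 0.22, adjusted p = 0.000111). Gins1, a helicase partner, fell by 0.68 ± 0.19 (adjusted p = 0.00609). Tumours did not differ detectably from non-tumour livers in Tk1 (0.27 ± 0.22, adjusted p = 0.377) or Gins1 (−0.31 ± 0.19, adjusted p = 0.225). In Mcm10 they were lower (−1.42 ± 0.42, adjusted p = 0.0151).

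Of 35 G1 cyclins, CDK inhibitors and E2F, Rb and Myc family genes, 18 were higher and 4 lower, with a median of 0.37. E2f1, which drives S-phase entry, had 5.11, 7.08, 5.9 and 6.46 CPM in tumours, against 4.72, 3.37, 5.33 and 4.2 CPM in normal-diet livers, and the groups overlapped. Its log2 fold change was small at 0.48 ± 0.14 (adjusted p = 0.00945), and tumours did not differ detectably from non-tumour livers (0.15 ± 0.14, adjusted p = 0.442). E2f2 was higher by 2.81 ± 0.32 (adjusted p = 2.33e-06). Myc (chromosome 15, 61857240 to 61862223) was lower, with 3.65, 8.52, 9.01 and 5.43 CPM in tumours, against 15.5, 54.6, 21.8 and 29 CPM in normal-diet livers (−2.18 ± 0.45, adjusted p = 0.000673). Its relative Mycn went the other way, with 7.64, 11.5, 6.74 and 7.96 CPM in tumours, against 0.35, 0.698, 0.459 and 0.445 CPM in normal-diet livers (4.10 ± 0.53, adjusted p = 7.75e-06). Neither gene's groups overlapped. Non-tumour livers resembled tumours for Myc (2.03 to 7.4 CPM, tumour minus non-tumour 0.44 ± 0.46, adjusted p = 0.491) and lay between for Mycn (1.26 to 5.16 CPM). These are transcript levels, and protein levels of E2F1 and c-Myc were not measured here.

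Ccne1, the G1 cyclin E1, was higher by 3.83 ± 0.45 (adjusted p = 3.23e-06), and Ccnd1, cyclin D1, by 2.69 ± 0.37 (adjusted p = 1.78e-05), with Ccnd1 named after its values were seen. Cdkn2b, the CDK4 and CDK6 inhibitor p15, had 50.8, 13.4, 5.06 and 21.1 CPM in tumours, against 0.117, 0.291, 0.344 and 0.191 CPM in normal-diet livers (6.53 ± 0.72, adjusted p = 2.18e-06, and 5.77 ± 0.56 without tumour 1). Rbl1, the pocket protein p107, was higher by 2.13 ± 0.23, and Rbl2, the pocket protein p130 of resting cells, fell by 0.92 ± 0.09 (adjusted p = 7.92e-07). E2f8, an E2F repressor, had 2.36 to 5.95 CPM in tumours and 8.05 to 20.6 CPM in normal-diet livers (−1.54 ± 0.41, adjusted p = 0.00407). Non-tumour livers held 2.57 to 5.41 CPM of E2f8, and tumours did not differ from them detectably (0.30 ± 0.41, adjusted p = 0.6). Of 24 ribosome biogenesis genes, many of them known Myc targets, 3 were higher and 8 lower, with 5 lower when either tumour 3 or tumour 4 was left out. Cad, the pyrimidine synthesis enzyme, was higher by 1.13 ± 0.21, and Nolc1 and Gnl3, nucleolar proteins, had log2 fold changes of −0.66 ± 0.14 and −0.51 ± 0.10. Tumours also exceeded non-tumour livers in Cad (0.60 ± 0.21, adjusted p = 0.0311). They did not differ from them detectably in Nolc1 (−0.03 ± 0.14, adjusted p = 0.889) or Gnl3 (0.03 ± 0.10, adjusted p = 0.863).

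Sterol synthesis rose nearly throughout, with 22 of 24 cholesterol synthesis and uptake genes higher, 1 lower and a median of 2.00. Lss, lanosterol synthase, had 331, 350, 158 and 296 CPM in tumours, against 32.4, 19.5, 38.3 and 34.6 CPM in normal-diet livers (3.18 ± 0.32, adjusted p = 9.66e-07). Non-tumour livers stayed at 31.5 to 48.1 CPM, so that tumours exceeded them by 2.77 ± 0.31 (adjusted p = 4.64e-05), and they did not exceed normal-diet livers detectably (0.41 ± 0.29, adjusted p = 0.315). Hmgcs1, the HMG-CoA synthase of the sterol route, had 1250, 1520, 714 and 1300 CPM in tumours, against 152, 95.9, 204 and 188 CPM in normal-diet livers (2.90 ± 0.33, adjusted p = 2.73e-06). Mvd, Mvk, Cyp51 and Dhcr7, further enzymes of the route, were higher by 3.10 ± 0.33, 2.10 ± 0.29, 2.47 ± 0.33 and 2.67 ± 0.34. For all 6 enzymes the lowest tumour, tumour 3, was above the highest normal-diet liver. Over all genes tested, 24.3% showed such a gap in this direction.

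Fatty acid synthesis and desaturation was mixed, with 12 of 22 genes higher, 4 lower and a median of 0.64. Scd2, a stearoyl-CoA desaturase scarce in adult mouse liver (chromosome 19, 44282113 to 44295303), had 538, 747, 209 and 447 CPM in tumours, against 5.95, 3.95, 6.42 and 5.79 CPM in normal-diet livers (6.45 ± 0.57, adjusted p = 5.22e-07). Scd1, the main hepatic desaturase and named after its values were seen, had 4520, 10000, 9210 and 12400 CPM in tumours, against 9430, 4130, 9720 and 8020 CPM in normal-diet livers, and the overlapping groups did not pass the test (0.21 ± 0.34, adjusted p = 0.625). Fads2 and Fads1, the polyunsaturated fatty acid desaturases, were higher by 2.45 ± 0.20 and 1.96 ± 0.19. Pnpla3, a lipid-droplet protein linked in humans to fatty liver, had 20.5, 25.3, 10.5 and 20.6 CPM in tumours, against 0.117, 0.0582, 0.287 and 0.127 CPM in normal-diet livers (6.96 ± 0.45, adjusted p = 4.3e-08). Gpam, the first enzyme of triglyceride synthesis, was higher by 2.24 ± 0.26 (adjusted p = 2.53e-06).

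Of 19 lipid-droplet and PPARG target genes, 7 were higher and 6 lower, beside 28.6% and 26.8% over all genes tested. Their median of 0.09 was −0.16 without tumour 3, −0.11 without tumour 4 and 0.48 without tumour 1. Several were highest in non-tumour liver. Cidec, which fuses lipid droplets, had 34, 55.8, 50.6 and 51.2 CPM in tumours and 10.2, 11.4, 14.5 and 11.8 CPM in normal-diet livers (2.00 ± 0.29, adjusted p = 2.34e-05), while non-tumour livers held 66.8 to 126 CPM, above the tumours (tumour minus non-tumour −1.09 ± 0.27, adjusted p = 0.00522). Cidea, its brown-fat relative, had the same order, with 1.95 to 22.6 CPM in tumours, 21.9 to 68.7 CPM in non-tumour livers and 0 to 1.46 CPM in normal-diet livers (4.57 ± 0.95 for tumour minus normal diet, and 5.90 ± 1.2 without normal-diet liver 4). Plin3 was higher by 1.37 ± 0.17, and Plin5, the perilipin that tethers droplets to mitochondria, fell by 1.78 ± 0.35 (adjusted p = 0.000426). Plin1, Adipoq and Lep, which define adipocytes, were at or near 0 in all libraries.

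Genes of mitochondrial energy production were mostly lower. All 23 nuclear-encoded respiratory chain genes tested were lower, with a median of −0.82, as were all 7 mitochondrially encoded genes tested, with a median of −0.99. Of 15 citric acid cycle genes, 12 were lower and none higher, with a median of −0.40 and 3 that did not pass. Sdhb, an iron-sulfur subunit of complex II, had 93.8, 94.3, 120 and 111 CPM in tumours, against 245, 202, 228 and 247 CPM in normal-diet livers (−1.14 ± 0.11, adjusted p = 5.78e-07). Ndufs3, Uqcrc1 and Cox5b, from complexes I, III and IV, had log2 fold changes of −0.74 ± 0.07, −0.89 ± 0.09 and −0.99 ± 0.11. Idh3b and Fh1, of the citric acid cycle, had log2 fold changes of −1.02 ± 0.10 and −0.98 ± 0.14. No library of 1 group overlapped the other for these 6 genes, as for 49.2% of all genes tested. The mitochondrially encoded share of all reads was 2.56% to 4.05% in tumours and 5.07% to 5.98% in normal-diet livers (two-sided exact permutation test, p = 0.0286, adjusted 0.0776). The other 6 of the 13 mitochondrially encoded genes, among them mt-Co2, mt-Co3 and mt-Atp6, had 0 to 4 counts in each library, so the share covers part of the mitochondrial transcripts. Messenger RNA was selected in library preparation, so this share also depends on how mitochondrial transcripts were captured, which was not tested. Nuclear-retained transcripts, read as a sign of RNA quality, moved with the groups as well: of 5 tested, Malat1, Neat1 and Kcnq1ot1 were higher and Snhg11 lower, with a median of 0.56. Their summed level was 993 to 1460 CPM in tumours, 708 to 1050 CPM in non-tumour livers and 653 to 934 CPM in normal-diet livers, and its part in this and the other group changes was not tested.

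Fatty acid oxidation and ketogenesis fell in 19 of 28 genes and rose in 2, with a median of −0.65. Acadvl, the very-long-chain acyl-CoA dehydrogenase, had 220, 271, 317 and 261 CPM in tumours, against 485, 536, 476 and 470 CPM in normal-diet livers (−0.88 ± 0.12, adjusted p = 1.69e-05). Cpt2, of the carnitine shuttle, fell by 1.24 ± 0.19 (adjusted p = 3.21e-05). The 2 that rose were Bdh1, which forms beta-hydroxybutyrate, with 374 to 499 CPM in tumours and 194 to 205 CPM in normal-diet livers (1.2 ± 0.12), and Fgf21, a secreted metabolic hormone. Fgf21 had 21, 45.4, 11.9 and 16.9 CPM in tumours, against 0.117, 1.69, 0.573 and 0.191 CPM in normal-diet livers (5.18 ± 0.68, adjusted p = 1.05e-05, and 6.29 ± 0.78 without normal-diet liver 2). Cyp4a14, a PPARA-induced fatty acid hydroxylase, overlapped, with 1.35, 29, 167 and 112 CPM in tumours and 183, 2140, 100 and 87.9 CPM in normal-diet livers. Its call (−3.02 ± 1.18, adjusted p = 0.0384) was lost without normal-diet liver 2 (−0.67 ± 0.97, adjusted p = 0.586), without tumour 1 (−2.60 ± 1.13, adjusted p = 0.0669), without tumour 2 (−2.74 ± 1.32, adjusted p = 0.0946) and without tumour 4 (−3.23 ± 1.38, adjusted p = 0.061), and without tumour 3 it was −3.73 ± 1.38 (adjusted p = 0.0321).

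Of 22 glycolysis genes, 6 were higher and 3 lower, not above the 28.6% and 26.8% over all genes tested. Their median was 0.18, and −0.01 without tumour 3. Pkm, the pyruvate kinase of proliferating and non-hepatocyte cells, had 33.1, 30, 57.9 and 37.9 CPM in tumours, against 14.7, 13.8, 17.8 and 13.5 CPM in normal-diet livers (1.41 ± 0.24, adjusted p = 9.81e-05). Hk2, a hexokinase low in healthy liver, was higher by 2.64 ± 0.66 (adjusted p = 0.00272), with 2.14 to 10.9 CPM in tumours, 7.07 to 18.4 CPM in non-tumour livers and 0.572 to 1.57 CPM in normal-diet livers. Of 14 gluconeogenesis and glycogen genes, 8 were lower and 2 higher, with a median of −0.68, and none was higher without normal-diet liver 2 or tumour 4 and 1 without normal-diet liver 1 or 4 or tumour 2 or 3. Pck1, the committed enzyme of gluconeogenesis, had 317, 140, 924 and 409 CPM in tumours, against 3930, 3050, 3330 and 3020 CPM in normal-diet livers (−2.90 ± 0.40, adjusted p = 1.41e-05, and −3.53 ± 0.34 without tumour 3). G6pc, which releases glucose, fell by 2.32 ± 0.42. Fbp1, fructose bisphosphatase, fell by 0.74 ± 0.18 (adjusted p = 0.00192). Its level was 329 to 669 CPM in tumours, 1070 to 1140 CPM in non-tumour livers and 842 to 886 CPM in normal-diet livers, so non-tumour livers were the highest.

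Nitrogen and amino acid metabolism was reduced nearly as a whole. Of 12 urea cycle and ammonia genes, 10 were lower and 1, Glud1, higher, with a median of −1.24. Of 27 amino acid breakdown genes, 25 were lower and none higher, with a median of −1.22. Cps1, which fixes ammonia in the first urea cycle step, had 704, 727, 1040 and 936 CPM in tumours, against 4060, 3210, 3990 and 4310 CPM in normal-diet livers (−2.19 ± 0.22, adjusted p = 9.17e-07). Asl and Ass1, the argininosuccinate enzymes, had log2 fold changes of −2.10 ± 0.16 and −2.06 ± 0.25, and Otc and Arg1, the enzymes before and after them, of −1.63 ± 0.19 and −1.2 ± 0.16. The 5 enzymes were low in every tumour, with no overlap, which 24.9% of all genes tested showed in this direction. Gnmt, which uses up methyl groups of S-adenosylmethionine, had 87.6, 123, 354 and 273 CPM in tumours, against 1910, 1680, 1980 and 2020 CPM in normal-diet livers (−3.18 ± 0.41, adjusted p = 7.96e-06). Ahcy and Cth, which carry homocysteine metabolism onward, had log2 fold changes of −2.60 ± 0.26 and −2.52 ± 0.26.

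Cytochromes P450 and drug receptors were lower in 19 of 24 cases and higher in 3, with a median of −2.08. The 3 higher genes were the female-biased Cyp2a4, Cyp2b9 and Cyp2b13. Cyp3a11, a major drug-metabolising P450 with close copies, had 265, 890, 931 and 976 CPM in tumours, against 8380, 4270, 5620 and 5310 CPM in normal-diet livers (−2.95 ± 0.40, adjusted p = 1.25e-05). Por, the electron donor of all microsomal P450s, fell by 2.09 ± 0.27 (adjusted p = 8.18e-06). Phase II conjugation fell in 14 of 20 genes and rose in 3, with a median of −1.16, and within it Ces2a, a carboxylesterase, fell by 3.85 ± 0.29 (adjusted p = 1.61e-07). Bile acid synthesis and transport fell in 17 of 20 genes and rose in none, with a median of −1.43. Slc27a5 and Baat, which conjugate bile acids, had log2 fold changes of −1.65 ± 0.18 and −1.70 ± 0.24, and Abcb11, the bile salt export pump, of −1.28 ± 0.21. Cyp7a1, the rate-limiting enzyme of bile acid synthesis, had 0.169, 2.98, 40.6 and 18.6 CPM in tumours, against 130, 59.4, 94.8 and 165 CPM in normal-diet livers (−2.84 ± 0.98, adjusted p = 0.0205), −3.95 ± 1.10 without tumour 3, and no longer passed without tumour 2 (−2.49 ± 1.04, adjusted p = 0.0565).

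Genes of both ends of the liver lobule were reduced. Of 18 pericentral and beta-catenin target genes, 10 were lower and 2 higher, with a median of −0.95, and 5 were lower without tumour 2. Of 12 periportal genes, 8 were lower and 3 higher, with a median of −1.40. The tumours differed widely from each other in these genes. As a percentage of the normal-diet mean, Cyp2e1, the ethanol-inducible P450 around the central vein, was at 1.54%, 7.14%, 30.7% and 20.0% in tumours 1 to 4. Its CPM values were 114, 528, 2270 and 1480 in tumours, against 7060, 8430, 7040 and 7070 in normal-diet livers (−2.75 ± 0.66, adjusted p = 0.00215, and −3.39 ± 0.72 without tumour 3). Cyp1a2, also pericentral, was at 0.169%, 4.52%, 15.4% and 8.56%, and periportal Cyp2f2 at 1.25%, 3.03%, 19.2% and 13% of the normal-diet mean. Their log2 fold changes were −3.80 ± 0.81 (−4.50 ± 0.91 without tumour 3) and −3.45 ± 0.67 (−4.11 ± 0.73 without tumour 3). Periportal Etnppl, a phospholyase of ethanolamine phosphate, was at 0.221%, 1.39%, 9.87% and 5.02% (−4.59 ± 0.81, and −5.49 ± 0.88 without tumour 3). Tumour 1 was the lowest and tumour 3 the highest for each of these 4 genes.

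Glul, the pericentral glutamine synthetase and beta-catenin target, named after its values were seen, had 28.4, 279, 897 and 524 CPM in tumours, against 763, 911, 775 and 747 CPM in normal-diet livers. The groups overlapped, tumour 3 lay at 112% of the normal-diet mean and tumour 1 at 3.55%, and the test was not passed (−0.89 ± 0.64, adjusted p = 0.25). Oat, ornithine aminotransferase, which is pericentral too, was at 1.01%, 7.11%, 26.5% and 21.9% (−2.82 ± 0.76, adjusted p = 0.00468). Notum, a beta-catenin target that blocks Wnt ligands, fell by 1.84 ± 0.43 (adjusted p = 0.00175), and Tcf7, a nuclear partner of beta-catenin, was higher by 1.17 ± 0.17 (adjusted p = 2.16e-05). Spread among tumours was smaller for other hepatocyte genes. Cps1, which is periportal too, was at 18.1%, 18.6%, 26.7% and 24% and Tdo2, which degrades tryptophan, at 44.5%, 40.9%, 50.5% and 57.3%.

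**Figure D3:**
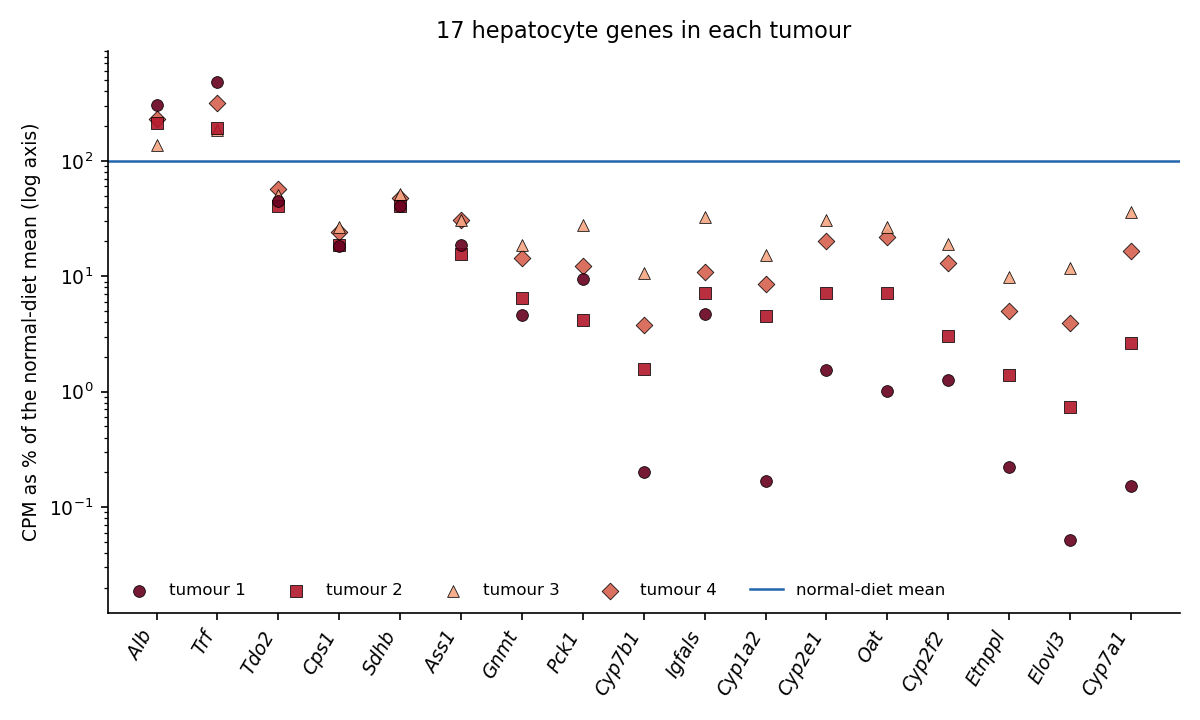
CPM of 17 hepatocyte genes in each of the 4 tumours as a percentage of the normal-diet mean, on a log axis, with 1 symbol per tumour and a line at the normal-diet mean. Cyp2e1 is at 1.54% in tumour 1 and 30.7% in tumour 3, while Cps1 stays between 18.1% and 26.7%, and Alb lies above the line in every tumour.

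Transcripts of several abundant plasma proteins were higher in tumours. Alb, serum albumin, took 9.05% to 15.9% of all reads in tumours and 5.08% to 5.80% in normal-diet livers (two-sided exact permutation test, p = 0.0286, adjusted 0.0776). Its CPM was 177000, 122000, 79700 and 132000 in tumours, against 63700, 55500, 52500 and 58800 in normal-diet livers (1.15 ± 0.23, adjusted p = 0.000356). The 10 most abundant genes together took 20.5% to 33.3% of reads in tumours and 15.6% to 16.8% in normal-diet livers. These shares are of unscaled reads, whereas CPM and the tests use TMM scaling. Of 22 hepatocyte secreted proteins and regulators, 4 were higher, namely Alb, Apoa1, Trf and Ahsg, and 6 lower, with a median of −0.25. Trf, transferrin, was higher by 1.57 ± 0.27 and Ahsg, fetuin-A, by 1.28 ± 0.28. Apoa2, the second HDL apolipoprotein, fell by 1.0 ± 0.16. Apoa4, an apolipoprotein raised in fatty liver, had 11600, 14500, 5670 and 10400 CPM in tumours, against 159, 138, 160 and 111 CPM in normal-diet livers (6.21 ± 0.56, adjusted p = 5.35e-07). Hnf4a, a master regulator of hepatocyte identity, had 457 to 579 CPM in tumours and 731 to 1020 CPM in normal-diet livers (−0.68 ± 0.11, adjusted p = 8.75e-05). Non-tumour livers held 494 to 564 CPM of Hnf4a, and tumours did not differ from them detectably (−0.02 ± 0.11, adjusted p = 0.896). Nr1h4, the bile acid receptor FXR, fell by 1.08 ± 0.20.

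Of 21 acute phase proteins, 7 were higher and 6 lower, with a median of 0.18. These counts were near the 28.6% higher and 26.8% lower over all genes tested. Lcn2, the iron-binding lipocalin, had 1230, 624, 298 and 513 CPM in tumours, against 3.56, 15.2, 1.6 and 2.99 CPM in normal-diet livers (6.83 ± 0.82, adjusted p = 4.93e-06, and 7.94 ± 0.83 without normal-diet liver 2). Hamp, the iron hormone hepcidin, had 28.4, 25.7, 114 and 43.8 CPM in tumours, against 833, 1270, 991 and 877 CPM in normal-diet livers (−4.23 ± 0.75, adjusted p = 0.000164, and −4.93 ± 0.82 without tumour 3). Hp, haptoglobin, was higher by 1.07 ± 0.23. Complement and coagulation factors fell in 18 of 32 genes and rose in 3, with a median of −0.44, and 5 rose without normal-diet liver 2 or without tumour 2. C8b and C9, parts of the membrane attack complex, had log2 fold changes of −3.35 ± 0.48 and −1.39 ± 0.22, and Mbl1, a mannose-binding lectin, of −1.70 ± 0.26. C8b was also low in non-tumour livers, at 37.9 to 70.8 CPM, and tumours did not differ from them detectably (−0.23 ± 0.44, adjusted p = 0.721). C9 and Mbl1 were lower in tumours than in non-tumour livers (−0.82 ± 0.22, adjusted p = 0.0071, and −1.13 ± 0.26, adjusted p = 0.00286).

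Of 37 oncofetal and liver tumour markers, 30 had enough reads to be tested, with a median of 3.50. Of these 26 were higher and none lower, and 1 was lower without tumour 3. The other 7, among them Igf2, Dlk1, Lin28b and Sall4, had only 0 to 17 counts in each tumour. Igdcc4, an immunoglobulin-family receptor of fetal liver, had 69.8, 34.5, 10.9 and 44.9 CPM in tumours, against 0.0583, 0.174, 0.344 and 0.0636 CPM in normal-diet livers (7.88 ± 0.83, adjusted p = 1.77e-06, and 8.56 ± 1.02 without normal-diet liver 3). Golm1, the Golgi protein GP73 used as a serum marker in humans, was higher by 4.50 ± 0.48, and Anxa2, a membrane-binding annexin, by 3.68 ± 0.34. Tumours also exceeded non-tumour livers in Golm1 (3.74 ± 0.45, adjusted p = 6.32e-05). Anxa2 was already at 89.7 to 171 CPM in non-tumour livers, and tumours did not differ from them detectably (0.63 ± 0.30, adjusted p = 0.111). Afp, alpha-fetoprotein, Gpc3, the oncofetal glypican, and H19, a fetal noncoding RNA, are named after their values were seen. Afp had 135, 297, 11.6 and 137 CPM in tumours, against 0.233, 0.465, 0.631 and 0.7 CPM in normal-diet livers (8.15 ± 1.35, adjusted p = 8.94e-05, and 7.53 ± 1.33 without tumour 2). Gpc3 had 475, 104, 60.6 and 256 CPM in tumours, against 2.1, 0.582, 5.67 and 0.763 CPM in normal-diet livers (6.60 ± 1.15, adjusted p = 0.000141, 5.93 ± 1.10 without tumour 1, and 7.59 ± 1.38 without normal-diet liver 3). H19 had 46.3, 278, 63.8 and 189 CPM in tumours and 0.229 to 0.292 CPM in normal-diet livers (9.12 ± 1.8, adjusted p = 0.000423). All 4 tumours carried all 3 transcripts, in different orders.

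Of 20 p53 targets, 14 were higher and 1 lower, with a median of 0.95, and none was lower without normal-diet liver 2 or tumour 2. Tnfrsf10b, a TRAIL death receptor, was higher by 5.02 ± 0.61 (adjusted p = 4.05e-06) and Zmat3, an RNA-binding p53 target, by 1.75 ± 0.24. Cdkn1a, the p53-induced inhibitor p21, named after its values were seen, had 111, 54.1, 49.8 and 55.8 CPM in tumours and 75.9, 56.8, 30 and 46.4 CPM in normal-diet livers, which overlapped (0.37 ± 0.53, adjusted p = 0.567). Of 19 NRF2 targets, 10 were higher and 3 lower, with a median of 0.40. G6pdx, the entry enzyme of the pentose phosphate route, was higher by 2.38 ± 0.31, while Gclm, a glutathione synthesis subunit, fell by 0.65 ± 0.12. Slc7a11, the cystine importer, had 5, 21.7, 1.58 and 1.4 CPM in tumours and 0.0582 to 0.117 CPM in normal-diet livers (6.28 ± 1.2, adjusted p = 0.000324, and 4.8 ± 0.99 without tumour 2).

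Of 23 ATF4 and unfolded protein response genes, 10 were higher and 3 lower, with a median of 0.53. The serine synthesis enzymes stood out in size. Psat1 had 80, 54.3, 17.4 and 24.9 CPM in tumours, against 0.525, 0.349, 0.459 and 0.636 CPM in normal-diet livers (6.47 ± 0.64, adjusted p = 1.06e-06), with 1.36 to 1.99 CPM in non-tumour livers. Phgdh, the first enzyme of that route, was higher by 6.79 ± 0.84 (adjusted p = 5.06e-06) from a very low base, and Mthfd2, the mitochondrial folate enzyme, by 1.97 ± 0.30. Herpud1, a protein of endoplasmic reticulum quality control, fell by 1.11 ± 0.23. Heat shock chaperones were lower in 5 of 13 cases and higher in 1, with a median of −0.22 (0.02 without normal-diet liver 2), and Hspd1, the mitochondrial chaperonin, fell by 0.61 ± 0.11.

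Of 27 immediate early and ERK feedback genes, 17 were higher and 3 lower, with a median of 1.03. Dusp5, an ERK phosphatase, had 31.4, 14.4, 7.71 and 18.9 CPM in tumours, against 1.87, 1.69, 1.32 and 1.65 CPM in normal-diet livers (3.47 ± 0.51, adjusted p = 2.95e-05). Non-tumour livers were at 0.963 to 2.18 CPM, below tumours by a log2 difference of 3.55 ± 0.51 for tumour minus non-tumour (adjusted p = 0.00013), and not detectably different from normal-diet livers (−0.08 ± 0.54, adjusted p = 0.925). Spry2 and Spred1, inhibitors of receptor to ERK signalling, were higher by 2.43 ± 0.25 and 1.03 ± 0.10, Dusp6 by 1.37 ± 0.25, and Etv5, an ETS factor, by 1.26 ± 0.23. None of these 5 genes overlapped between tumours and normal-diet livers, as for 49.2% of all genes tested.

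Of 19 clock genes, 4 were higher, namely Per2, Per3, Nr1d1 and Dbp, with a median of −0.32 over the list. Another 7 were lower, among them Clock, Cry1, Cry2, Tef, Hlf and Nfil3. Over all genes tested, 55.3% were called in either direction, so the number of calls does not set the clock list apart. Arntl, which encodes BMAL1, had 43.8, 30.2, 27.6 and 37.3 CPM in tumours and 40.6, 40.2, 40.8 and 45 CPM in normal-diet livers, overlapping, and did not pass (−0.26 ± 0.37, adjusted p = 0.567). Its partner Clock had 59.1 to 63.9 CPM in tumours and 96.4 to 116 CPM in normal-diet livers (−0.75 ± 0.14, adjusted p = 0.000213). Per2 and Per3, repressors of the loop, were higher by 0.79 ± 0.22 and 1.45 ± 0.34, and Per1 overlapped and did not pass (−0.32 ± 0.27, adjusted p = 0.334). Cry2 fell by 0.35 ± 0.09 (adjusted p = 0.00288). Cry1 was at −0.85 ± 0.34 (adjusted p = 0.0419), and its call was lost with 7 of the 8 libraries left out in turn, tumour 1 being the exception, at −0.71 to −0.90 with adjusted p of 0.0549 to 0.116.

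Among clock output genes, Dbp had 3.65, 9.44, 6.55 and 6.41 CPM in tumours, against 1.46, 1.1, 1.03 and 1.21 CPM in normal-diet livers (2.44 ± 0.64, adjusted p = 0.00376). Nfil3, which opposes DBP at its sites, had 30.1, 21.3, 38.6 and 32.8 CPM in tumours, against 105, 107, 99.2 and 92.9 CPM in normal-diet livers (−1.72 ± 0.22, adjusted p = 8.51e-06). Hlf, a relative of Dbp, fell by 1.09 ± 0.14. Nr1d1, the repressor REV-ERB alpha, had 24.2 to 41.7 CPM in tumours and 10.5 to 27.1 CPM in normal-diet livers, with an overlap (0.88 ± 0.26, adjusted p = 0.00766). Non-tumour livers had the highest values for Dbp (7.99 to 11.9 CPM) and Nr1d1 (49.5 to 51.1 CPM), and tumours did not differ from them detectably (adjusted p = 0.298 and 0.12), although with the mouse as a block Nr1d1 was lower in tumours than in non-tumour livers (−0.54, adjusted p = 0.025). The hour at which each sedentary group was sampled is not given in the sources used here, so phase and level cannot be told apart.

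Interferon and inflammation genes were higher in tumours, and no lymphocyte marker passed the test. Of 22 interferon response genes, 20 were higher and none lower, with a median of 1.41. Ifi44 had 21.6, 18.8, 13.1 and 18.6 CPM in tumours, against 1.63, 1.45, 1.78 and 1.34 CPM in normal-diet livers (3.53 ± 0.31, adjusted p = 4.16e-07). Oas1a, an RNA sensor, was higher by 2.85 ± 0.35. Of 9 MHC class II genes, 7 were higher, with a median of 1.37, but only 2 without tumour 3. Ciita, their master regulator, had 5.45, 4.16, 14.5 and 6.56 CPM in tumours, against 2.45, 1.22, 1.95 and 1.46 CPM in normal-diet livers (2.11 ± 0.40, adjusted p = 0.000245).

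Of 23 genes of senescence-linked inflammation, 18 were higher and none lower, with a median of 2.02. Il33, an alarmin, had 36.1, 23.3, 9.15 and 23 CPM in tumours, against 1.4, 1.51, 1.55 and 1.78 CPM in normal-diet livers (3.87 ± 0.35, adjusted p = 5.22e-07). Il1rn, the decoy ligand of the IL-1 receptor, was higher by 4.99 ± 0.54 (adjusted p = 1.94e-06), and by 5.92 ± 0.56 without normal-diet liver 2. Cxcl1, a neutrophil chemokine, had 83.5, 68.1, 29.2 and 63.8 CPM in tumours, against 1.57, 10, 1.6 and 2.35 CPM in normal-diet livers (3.97 ± 0.65, adjusted p = 8.55e-05, and 5.05 ± 0.68 without normal-diet liver 2). For all 3 genes the lowest tumour lay above the highest normal-diet liver, as for 24.3% of all genes tested.

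Marker lists describe which cells the pieces held, and in bulk tissue fewer cells of a type and less RNA per cell cannot be told apart. Of 14 lipid-associated and monocyte-derived macrophage markers, 13 were higher and none lower, with a median of 2.76, and their summed level was 932 to 2160 CPM in tumours and 157 to 191 CPM in normal-diet livers. In tumours 1 to 4, Spp1 alone made up 1440, 678, 358 and 966 CPM of sums of 2160, 1250, 932 and 1740 CPM. Among the other markers Cd63 was at 63.3 to 190 CPM in tumours and 2.91 to 5.83 CPM in normal-diet livers, and Lpl at 146 to 255 CPM in tumours and 28.4 to 56.5 CPM in normal-diet livers. Hepatocyte tumours can express all 3 genes as well. Ccr2, the monocyte chemokine receptor, had 7.87, 7.34, 19.3 and 11.9 CPM in tumours, against 1.22, 1.4, 1.83 and 1.21 CPM in normal-diet livers (3.03 ± 0.45, adjusted p = 3.18e-05). Itgax, CD11c, was higher by 3.20 ± 0.50. Tumours did not differ detectably from non-tumour livers in Ccr2 (0.15 ± 0.39, adjusted p = 0.791) or Itgax (0.34 ± 0.42, adjusted p = 0.562). Spp1, Cd63 and Lpl were higher in tumours than in non-tumour livers, by 3.13 ± 0.76 (adjusted p = 0.0046), 2.66 ± 0.51 (adjusted p = 0.000867) and 1.76 ± 0.28 (adjusted p = 0.000217). Of 10 Kupffer cell markers, 2 were lower and 1 higher, 5 were lower without tumour 3, and 4 were higher without tumour 1 or without tumour 2. Cd163 had 0.225, 0.718, 2.97 and 0.775 CPM in tumours, against 23.4, 29, 15.9 and 17.2 CPM in normal-diet livers (−4.14 ± 0.96, adjusted p = 0.00156, and −5.19 ± 1.16 without tumour 3). Timd4, of long-lived resident Kupffer cells, fell by 2.80 ± 0.75 (adjusted p = 0.00439), and Cd68, a general macrophage protein, was higher by 1.31 ± 0.30. The summed Kupffer level overlapped, at 124, 125, 563 and 260 CPM in tumours and 229 to 336 CPM in normal-diet livers.

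No T or NK cell, B cell or neutrophil marker passed edgeR's quasi-likelihood test among 9, 8 and 8 tested, and DESeq2 called none of them either. Among the 9 other processing settings, up to 1 T and NK marker was called in each direction. Up to 1 B and plasma cell marker and up to 1 neutrophil marker were called higher. At an unadjusted p under 0.05, 1 neutrophil marker was higher and no T, NK or B cell marker differed. Without tumour 3, 1 T and NK marker was lower, and without tumour 4, 1 neutrophil marker was higher. Summed T and NK markers were at 4.36 to 7.02 CPM in 3 tumours and 21.4 CPM in tumour 3, against 6.98 to 7.99 CPM in normal-diet livers. The non-tumour piece with the same mouse number as tumour 3 was also high, at 24.6 CPM. Of 7 dendritic cell markers, 3 were higher, and 1 without tumour 3 or normal-diet liver 3 or 4. Erythroid markers were higher in 5 of 6 cases, in 2 without normal-diet liver 2 and in none without tumour 3, while Alas2, the haem synthesis enzyme, fell by 2.06 ± 0.36 (adjusted p = 0.000156).

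Of 20 stellate cell and fibroblast markers, 12 were higher and 1 lower, with a median of 1.2, and 3 were lower without tumour 3. Col1a1, the fibrillar collagen of scar tissue, had 34.3, 47.9, 80.8 and 65.8 CPM in tumours, against 7.12, 3.9, 6.02 and 4.52 CPM in normal-diet livers (3.41 ± 0.60, adjusted p = 0.000155). Non-tumour livers had 15.2 to 57 CPM, from which tumours did not differ detectably (0.62 ± 0.52, adjusted p = 0.376). Col3a1 and Reln were higher by 2.79 ± 0.45 and 1.33 ± 0.22, and Timp1, a matrix protease inhibitor, had 1.85 to 3.95 CPM in tumours and 0 to 0.116 CPM in normal-diet livers. Of 12 sinusoidal endothelial markers, 5 were lower and none higher, with a median of −0.54, and 9 were lower without tumour 3. Bmp2, the endothelial signal for hepcidin, had 9.72, 10.3, 23.9 and 12.6 CPM in tumours, against 34.4, 39.3, 38.1 and 37.1 CPM in normal-diet livers (−1.39 ± 0.26, adjusted p = 0.000259), and Clec4g fell by 1.04 ± 0.25. Neither Bmp2 nor Clec4g differed detectably between tumours and non-tumour livers (−0.01 ± 0.26, adjusted p = 0.976, and −0.26 ± 0.24, adjusted p = 0.434). Of 11 vascular endothelial markers, 5 were higher and 1 lower, among them Cd34 (2.07 ± 0.46) and Esm1 (2.88 ± 0.74).

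Of 12 cholangiocyte and progenitor markers, 5 were higher and 1 lower, and their summed level, in tumours mostly Spp1, was 425 to 1570 CPM in tumours and 57.6 to 81.7 CPM in normal-diet livers. Krt19, the defining keratin of bile ducts, was low everywhere, with 0.517 to 0.65 CPM in tumours and 0.582 to 2.29 CPM in normal-diet livers (−1.49 ± 0.39, adjusted p = 0.00358). Prom1, Krt23 and Sox9, which progenitor cells share with liver tumours, were higher by 4.39 ± 0.56, 2.81 ± 0.57 and 1.60 ± 0.37. Spp1, osteopontin, which is on both this list and the macrophage list, had 1440, 678, 358 and 966 CPM in tumours, against 42.1, 15.6, 25.7 and 40 CPM in normal-diet livers (4.8 ± 0.83, adjusted p = 0.000128). Of 3 adipocyte markers tested, Cidea was higher and Car3 lower, and of 5 mesothelial and smooth muscle markers 1 was higher. The part of other cell types in the hepatocyte results above was not tested.

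**Figure D4:**
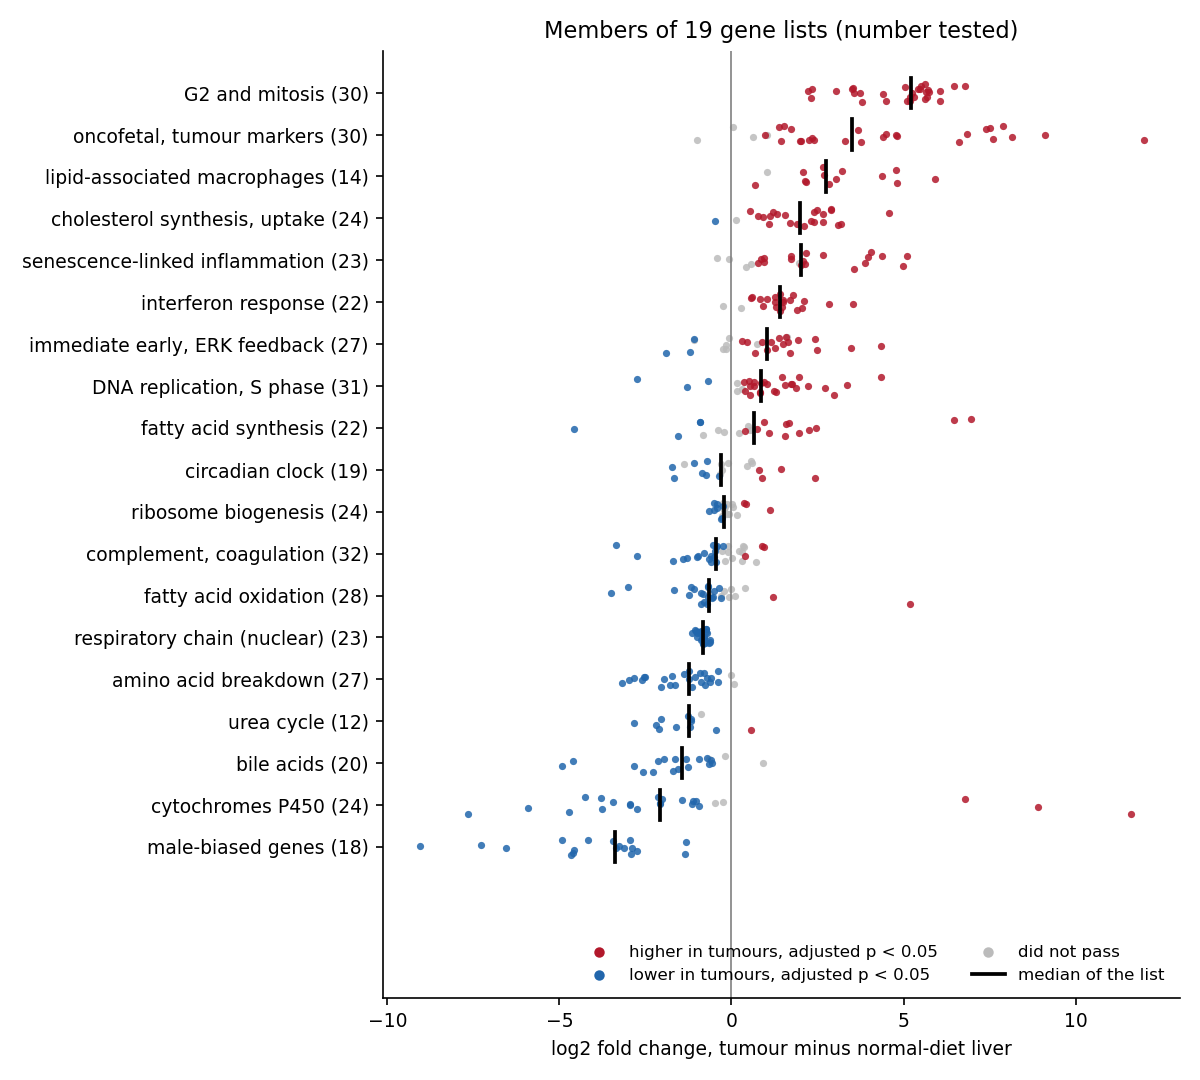
Log2 fold change, tumour minus normal-diet liver, of each tested member of 19 gene lists, 1 dot per gene, red where higher in tumours at an adjusted p under 0.05, blue where lower and grey where the test was not passed, with a black bar at the list's median. All 30 G2 and mitosis genes lie right of 0 around a median of 5.22, and all 18 male-biased genes lie left of 0 around a median of −3.39.

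The comparison spans 2 steps, tumour against non-tumour liver of the same diet and non-tumour against normal-diet liver, and the same fit called 18.0% of genes higher and 17.8% lower at the first, and 14% higher and 11.9% lower at the second. Both steps share the non-tumour libraries, so their values are given side by side only. For Scd2, tumours exceeded non-tumour livers by 4.91 ± 0.52 (adjusted p = 3.73e-05), and non-tumour exceeded normal-diet livers by 1.54 ± 0.48 (adjusted p = 0.0254). For Cyp26a1 the larger part lay at the second step, −2.02 ± 0.56 (adjusted p = 0.0103) for tumour minus non-tumour and −5.05 ± 0.45 (adjusted p = 5.21e-06) for non-tumour minus normal diet. Apoa4 had 1.67 ± 0.46 (adjusted p = 0.00929) and 4.54 ± 0.52 (adjusted p = 3.74e-05). Sdhb differed between tumour and non-tumour pieces (−0.90 ± 0.11, adjusted p = 4.9e-05), and not detectably between non-tumour and normal-diet livers (−0.23 ± 0.10, adjusted p = 0.108). Cps1 fell at both, by 0.89 ± 0.21 (adjusted p = 0.00387) and 1.31 ± 0.22 (adjusted p = 0.000522). Gpc1, a glypican, rose in tumours over lean liver (1.53 ± 0.14) although tumours were below non-tumour livers (−0.74 ± 0.13, adjusted p = 0.000489). Alb was higher at the first step (1.40 ± 0.23, adjusted p = 0.000241) and not detectably changed at the second (−0.26 ± 0.22, adjusted p = 0.416).

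**Figure D5:**
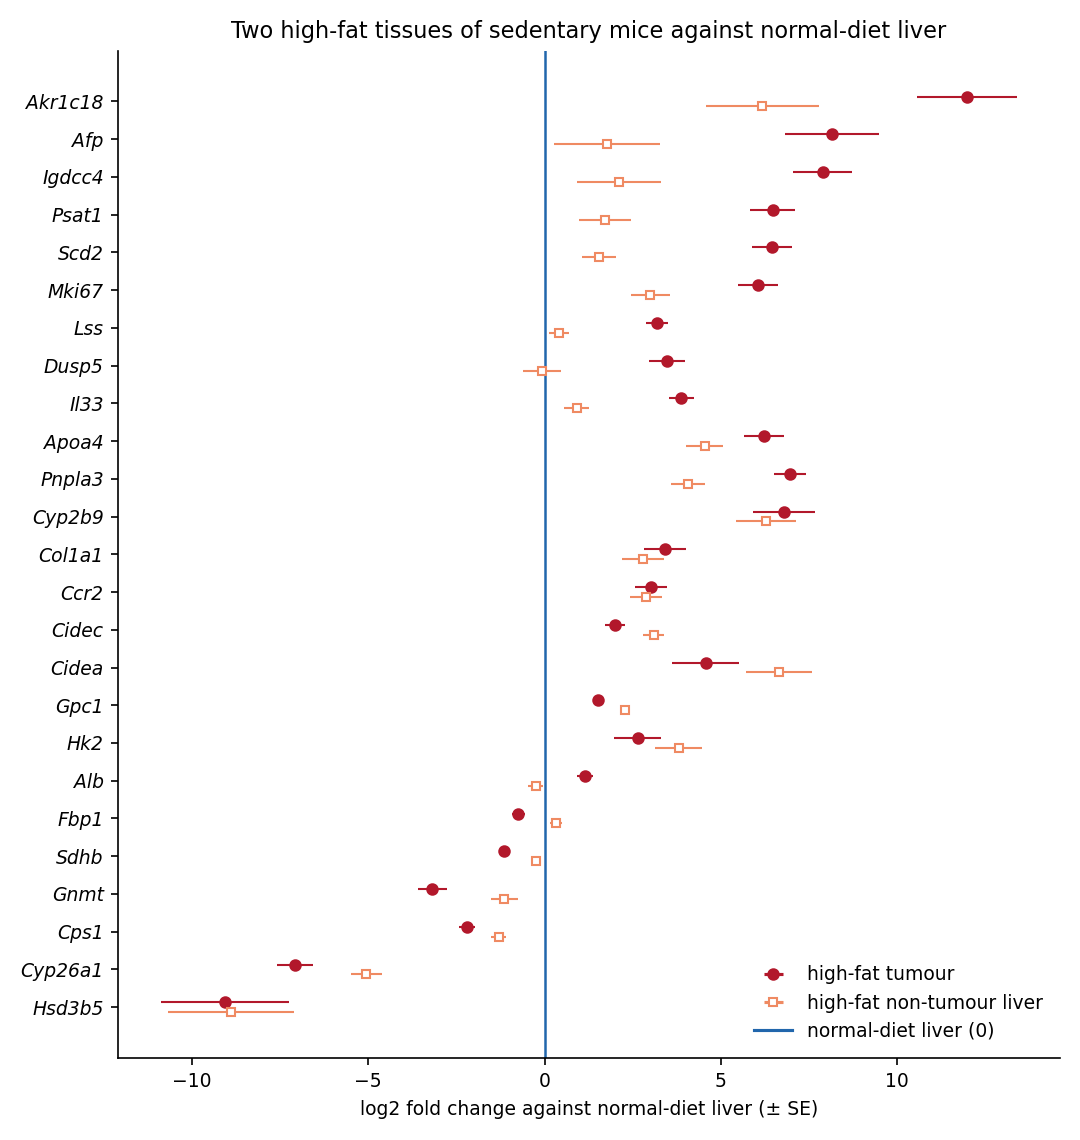
Log2 fold changes with standard errors of selected genes in high-fat tumours (filled circles) and high-fat non-tumour livers (open squares), each against normal-diet liver, which is the line at 0. Lss is at 3.18 in tumours and 0.41 in non-tumour livers, Hsd3b5 is low in both at −9.06 and −8.89, and for Cidec, Cidea, Gpc1 and Hk2 the non-tumour value lies to the right of the tumour value.

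Tumours varied more than lean livers, with a median SD of log2 CPM of 0.22 among tumours and 0.18 among normal-diet livers. Tumour 3 was the least changed of the 4 for the gains of Krt20, Cyp2a4, Mki67, Scd2, Psat1 and Afp and for the losses of Hsd3b5, Mup3, Elovl3, Cyp2e1 and Gnmt. Its summed stellate level of 1290 CPM, Kupffer level of 563 CPM and sinusoidal level of 548 CPM were the highest of the tumours. Their part in its smaller differences was not tested.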

How the data were processed

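RNA was extracted from frozen liver and sequenced from a stranded mRNA library, per the labels' protocols. The authors deposited raw counts per gene for each of 20 libraries, made with featureCounts 2.0.5 (strand setting 2) on GENCODE vM27, per the file headers. Trim Galore 0.6.10, STAR 2.7.11a and GRCm39 are listed per the submitters' processing notes.

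Groups were taken from titles, 4 mice each. All 20 libraries in 5 groups were fitted with edgeR 4.0.16 (quasi-likelihood F test, robust, TMM scaling, 15 residual degrees of freedom) on 14428 genes passing edgeR's expression filter (minimum count 10, minimum total 15), and contrasts were adjusted by the Benjamini-Hochberg method, with calls at an adjusted p under 0.05. The test was checked on counts simulated from the normal-diet profile, with few genes changed and equally many up and down. That check does not cover data in which 55.3% of genes are called, as here. CPM values use library sizes after TMM scaling, and percentages of reads and floors use unscaled totals. Log2 CPM used a prior count of 2. Library measures used two-sided exact permutation tests. No 2 libraries of a group agreed within sampling noise. Intervals and floors cover counting error only. Mouse numbers in the labels mark separate animals within a group, and p-values measure the spread between these mice. The main fit did not pair tumour and non-tumour pieces that carry the same mouse number. The labels name no sequencing batch.

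The genes and gene lists were chosen with earlier results of these data known. Named genes were taken from those made eligible by a rule: the largest changes in each direction among genes averaging at least 1 CPM, up to 6 called members of each list by smallest p, the E2F1, Myc and clock genes, the genes most variable among tumours, the largest absolute changes in CPM, and defining cell markers. Genes outside it are marked in the text, and not every eligible gene is reported here. Alternatives were RLE and upper-quartile scaling, DESeq2 1.42.0, limma 3.58.1 voom fits, 2 other expression filters, a fit of the 8 libraries alone, a replicate block and each library left out.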

Additional observations from a re-analysis of the deposited data

Results flagged for a closer look

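In groups of 4 libraries, a gene or marker sum was listed when its highest or lowest library was separated from the next by more than Dixon's 95% critical share of the group's range. This held for 29 of 390 groups checked, where chance lists about 1 in 20, or 19.5. Normal-diet liver 2 accounted for 12 of them. It was the highest of its group in Cyp4a14 (2140 CPM), Cpt2 (246 CPM), Fh1 (304 CPM), Ahcy (737 CPM), Cyp2e1 (8430 CPM), Glul (911 CPM), Lcn2 (15.2 CPM), Cxcl1 (10.0 CPM) and Il1rn (3.02 CPM), and the lowest in Elovl3 (883 CPM), Ghr (541 CPM) and Ass1 (1220 CPM).

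Tumour 3 was highest among tumours in Hsd3b5 (1.53 CPM), in the summed T and NK markers (21.4 CPM) and in the summed neutrophil markers (47.1 CPM), and lowest in Cyp2b9 (131 CPM). Tumour 1 was highest in Cdkn1a (111 CPM) and lowest in Cyp3a11 (265 CPM). Tumour 2 was highest in Gnl3 (30.9 CPM), and tumour 4 lowest in the summed mesothelial and smooth muscle markers (4.03 CPM).

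Normal-diet liver 1 was the highest of its group in Cyp2b10 (85.5 CPM), Cyp2b9 (6.71 CPM), Igfals (117 CPM), Slc27a5 (963 CPM) and Oas1a (1.75 CPM). Normal-diet liver 4 was highest in Rbl2 (56.8 CPM), Arntl (45.0 CPM) and Spink1, where its 0.0636 CPM is a single read, and lowest in Nr1h4 (128 CPM).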

How the results depend on the processing

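Of 176 genes named with values, 169 kept their direction and their side of the threshold for tumour minus normal-diet liver under 9 other settings and with each of 8 libraries left out. The exceptions were Cry1, Cyp4a14, Cyp7a1, Dbp, Gldn, Slc7a11 and Glul. The call was lost for Dbp and Gldn in both voom fits and for Slc7a11 in the voom fit with the mouse as a random effect, and Glul passed with voom weights per group, and the cause was not tested. Upper-quartile scaling gave 4702 genes higher and 3244 lower with a median of 0.10 over all genes, and the other settings put 50.1% to 53.6% of calls higher. With a single library left out, 3811 to 3986 genes were higher and 3396 to 3882 lower. A replicate block on the mouse number gave 4157 higher and 3956 lower, and lost 1 of the 171 calls among them, that of Cyp4a14. Tumours and normal-diet livers come from different mice, and same-numbered libraries did not deviate together (correlations of −0.06 to 0.06), so the numbers do not pair them.

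Leaving out a library kept the direction of all 4 library measures, but the exact permutation test of 4 against 3 cannot go below p = 0.0571. The tumour minus normal-diet difference then ran from 6.3 to 8.58 points for the Alb share, −2.57 to −2.07 for the mitochondrial share, 8.64 to 12.9 for the 10 most abundant genes, and 689 to 908 for genes detected. Over all genes tested, in place of 500 per pair, the distances were 1.31 between tumours and normal-diet livers, 0.616 among tumours and 0.465 among normal-diet livers. With single libraries left out, the median log2 fold change of 5 lists changed sign. It ran from −0.0066 to 0.244 for glycolysis, −0.0458 to 0.938 for T and NK markers, −0.479 to 1.12 for neutrophil markers and −0.16 to 0.481 for lipid-droplet and PPARG target genes, each lowest without tumour 3, and from −0.257 to 0.0222 for heat shock chaperones, highest without normal-diet liver 2. In the lists above with no member called in a direction, edgeR's unadjusted p under 0.05 added 1 sinusoidal endothelial and 1 neutrophil marker higher, and DESeq2 called none. Among the 9 other settings, up to 1 member was called higher for B and plasma cell, neutrophil and sinusoidal markers. Up to 1 was called lower for the oncofetal, interferon and mesothelial lists, and T and NK markers had up to 1 in each direction. Both steps were followed under other settings for 47 of the genes named. Among these, tumour minus non-tumour lost the call of Cyp2e1 (adjusted p = 0.0596) and gained those of Hk2 (0.0242) and Nr1d1 (0.025) with the mouse as a block. With voom weights per group it lost Cyp26a1 (0.0883) and gained Fgf21 (0.0327). Non-tumour minus normal diet gained Igdcc4, Psat1, Il33 and Spp1 with DESeq2, and with voom weights gained Spp1 and lost Cyp2a4 (0.053).

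Groups held 4 mice each, of 1 strain and sex, and tumours were taken only from high-fat mice. Diet and tumour state therefore cannot be told apart in the comparison of tumours with normal-diet livers alone. Genes under 1 CPM rest on few reads, and a count of 0 allows up to 0.0418 CPM, unscaled, pooled over the normal-diet group.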
